A study of Drosophila melanogaster with 12 samples.

Results

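The eye-antennal discs of both parental fly lines of a winged eye overexpression study were set against each other, UAS-wge against ey-Gal4, on 6 of the series' 12 arrays. UAS-wge larvae carried a transgene of winged eye (wge) behind the upstream activating sequence of the yeast activator Gal4, with no Gal4 driver named in the genotype. The ey-Gal4 larvae carried the driver, which makes Gal4 under control of the eyeless gene (ey), with no UAS transgene named. The remaining arrays came from ey>wge discs, which combined driver and transgene, and from the same combination in a Su(var)3-9[1]/[2] background. Every genotype had 3 biological replicates, all larvae were in the wandering stage of the last instar, and discs of 30 pairs were pooled for each array. Neither the wider genetic background of the lines nor the sex of the larvae was stated. All 18769 probe sets other than Affymetrix controls made up the comparison, and 13817 of them were above the 40th percentile of their array on at least 3 of the 12 arrays and were tested.

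An imaginal disc is a sheet of epithelium that grows in the larva and forms adult structures, here the eye, the antenna and parts of the head. Dissected discs can carry other tissue. Larval blood cells (hemocytes) attach to discs and consist of phagocytic plasmatocytes, crystal cells that hold prophenoloxidase for melanisation, and, after wasp attack, lamellocytes. Muscle RNA encodes the contractile proteins of the sarcomere, and cuticle genes encode the chitin-binding and structural proteins of the exoskeleton. Laboratory lines also differ in DNA sequence, and a short oligonucleotide probe can read a sequence difference as a difference in signal. With probe-set values alone, that case and a difference in RNA level cannot be told apart.

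The values were MAS5 signals, the Affymetrix estimate of probe set brightness on a linear scale. Median signals of the 6 parental arrays were 38.7 to 43.7, so signals near or below 40 lay in the lower part of an array. Changes are differences of log2(signal + 16), UAS-wge minus ey-Gal4, with the standard error (SE) of a limma fit, and a probe set was called at a Benjamini-Hochberg adjusted p under 0.05. The pseudocount of 16 shrinks changes of dim probe sets. The median standard deviation (SD) of a probe set was 0.23 in UAS-wge and 0.25 in ey-Gal4 on the log2 scale. It was 0.24 in ey>wge and 0.36 in ey>wge with the Su(var)3-9 allele pair. The SE rests on a spread shared by all of these genotypes. The first principal component of the 6 arrays held 35.8% of the variance and separated the lines, with UAS-wge between 26.5 and 33.2 and ey-Gal4 between -32.8 and -26.5. The second, with 17.2%, placed ey-Gal4 replicate 1 at 36.9 and ey-Gal4 replicate 2 at -34.6.

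Both lines had the profile of an eye-antennal disc. The transcript of eya, a retinal determination cofactor, averaged 3471 in UAS-wge and 3582 in ey-Gal4, and gl, a zinc finger factor of photoreceptors, averaged 3607 in UAS-wge and 3707 in ey-Gal4. Dll, which specifies distal antenna, averaged 1831 in UAS-wge and 1737 in ey-Gal4. None of 10 tested retinal determination genes and none of 12 antennal genes was called by limma, with 1 and 0 genes at an unadjusted p under 0.05. In every list count the probe set with the highest mean signal stands for a gene. A dimmer probe set of toy, a Pax6 gene of eye determination, was called lower (-0.93, adjusted p = 0.0473), while the brightest of its 3 probe sets changed by 0.24. The gene wge itself read 853 ± 69 in UAS-wge and 846 ± 93 in ey-Gal4 (SD, n = 3 each), a change of 0.01 with an adjusted p of 0.993. The driver's namesake ey read 1042 ± 63 in UAS-wge and 808 ± 17 in ey-Gal4, a change of 0.36 ± 0.20 (SE) that was not called (adjusted p = 0.463). For the white gene w, no probe set named that gene alone.

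Between the lines, 690 of 13817 probe sets were called, which is 4.99%, with 319 higher (2.31%) and 371 lower (2.69%) in UAS-wge. The median change of all tested probe sets was 0.01. At least 4-fold on the log2(signal + 16) scale, 41 were higher and 48 were lower, and at least 8-fold, 13 were higher and 13 lower. The 3 arrays of one line lay wholly above or below the 3 of the other for 689 of the 690 called probe sets, and for 3113 (22.5%) of all tested. Of the called probe sets, 588 named a single gene, 19 named several and 83 named none. A dim transcript that passed the filter only through the line where it is high had to differ, so the counts describe the comparison and not a rate over all genes.

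Blood-cell transcripts stood higher in UAS-wge discs. Of 19 plasmatocyte genes on the list, 17 were tested, 10 were higher and 1 was lower, against 2.31% and 2.69% of all probe sets. The list's median change was 1.20, and 16 of 17 changes were above 0. The summed signal of the list was 16902.5, 23219.7 and 19201.9 in UAS-wge replicates 1, 2 and 3, and 8466.7, 7790.9 and 7199.2 in those of ey-Gal4. All UAS-wge arrays were thus above all ey-Gal4 arrays. In bulk tissue, fewer cells of a type and less RNA per cell cannot be told apart.

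Nplp2, a secreted peptide precursor abundant in larval plasmatocytes, gave signals of 4364, 8565 and 6193 in UAS-wge, against 806.7, 710.6 and 324.6 in ey-Gal4. Its change was 3.39 ± 0.28 (adjusted p = 3.4e-07). The phagocytosis receptor gene NimC1 gave 854.9, 945.8 and 740.1 in UAS-wge, against 44.1, 130.0 and 70.1 in ey-Gal4. It was higher by 3.24 ± 0.28 (adjusted p = 6.27e-07). He, which encodes the hemocyte surface protein Hemese and is the next measured gene to NimC1 on chromosome arm 2L, gave 1011, 1215 and 1343 in UAS-wge, against 313.1, 181.6 and 277.8 in ey-Gal4, a change of 2.16 ± 0.23 (adjusted p = 6.05e-06).

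The other genes of phagocytosis and of the plasmatocyte surface had smaller differences. The bacterial receptor gene eater read 818.1, 1060 and 766.7 in UAS-wge, against 216.6, 205.3 and 208.4 in ey-Gal4 (1.98 ± 0.21, adjusted p = 6.91e-06). Sr-CI, a scavenger receptor, read 353.9, 524.4 and 490.2 in UAS-wge, against 233.8, 144.8 and 91.1 in ey-Gal4 (1.52 ± 0.27, adjusted p = 0.00198). NimB4, a secreted Nimrod protein gene, changed by 1.14 ± 0.31 (adjusted p = 0.0375), but this call was lost without any of 4 of the 6 parental arrays (both lines' replicate 3, ey-Gal4 replicate 1 and UAS-wge replicate 2), with an adjusted p of up to 0.214. The Nimrod genes NimB1, NimB2 and NimB5 had changes of 0.73, 1.01 and 1.20 that were not called, and NimC2 and NimC4 did not pass the filter. Changes of the receptor genes crq (0.51) and Pvr (0.34) and of the cofactor gene ush (0.35) were not called.

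Among secreted proteins of plasmatocytes, Pxn (peroxidasin, an enzyme of basement membrane) read 1060, 1711 and 1511 in UAS-wge, against 307.1, 194.6 and 317.8 in ey-Gal4 (2.32 ± 0.23, adjusted p = 4.39e-06). Hml, the clotting protein hemolectin, read 1542, 2302 and 2042 in UAS-wge, against 694.0, 671.0 and 591.2 in ey-Gal4 (1.55 ± 0.21, adjusted p = 0.000113). The blood-cell GATA factor gene srp read 504.4, 667.0 and 407.7 in UAS-wge, against 167.9, 168.6 and 154.9 in ey-Gal4 (1.57 ± 0.29, adjusted p = 0.00229). None of these 3 genes overlapped between the lines, which held for 689 of all 690 called probe sets. Glt (glutactin, a basement membrane glycoprotein) was the smallest called rise at 0.69 ± 0.19 (adjusted p = 0.0464), and its call was lost without any of the 6 parental arrays in turn (adjusted p 0.0969 to 0.187). The member that ran the other way was vir-1, a gene induced by viral infection, with 975.5, 1126 and 744.2 in UAS-wge, against 2202, 2037 and 1869 in ey-Gal4 (-1.11 ± 0.18, adjusted p = 0.000546).

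Of 3 crystal cell genes tested, 2 were also higher, which is 66.7%, against 2.31% of all probe sets. PPO1, a prophenoloxidase gene, gave 4772, 6308 and 5170 in UAS-wge, against 2118, 1550 and 1500 in ey-Gal4 (1.65 ± 0.22, adjusted p = 0.000104). PPO2, another prophenoloxidase gene, gave 3661, 5552 and 3685 in UAS-wge, against 1392, 978.0 and 1141 in ey-Gal4 (1.85 ± 0.18, adjusted p = 2.43e-06). The Runx factor gene lz, which crystal cells share with cells of the developing eye, changed by 0.27 and was not called. No lamellocyte gene was called, and 0 of 3 had an unadjusted p under 0.05: atilla changed by -0.52, PPO3 by -0.99 and ItgaPS4 by -0.25, and the mean signals of PPO3 and ItgaPS4 were below 40 in both lines. Of 13 basement membrane genes, 3 were higher (Pxn, Glt and SPARC, the last by 0.83 ± 0.13), which is 23.1%, against 2.31% of all probe sets. Pxn and Glt are shared with the plasmatocyte list.

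**Figure D1:**
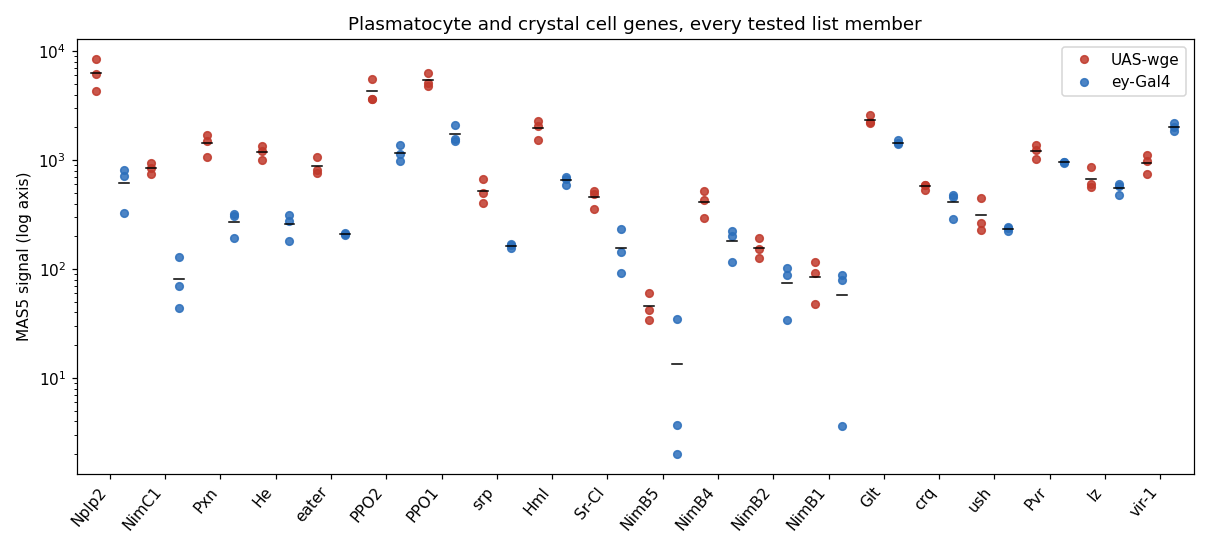
MAS5 signal (log axis) of the blood-cell genes on each array, with UAS-wge to the left of ey-Gal4, points for arrays and bars for means. Among called genes Nplp2 (3.39) and NimC1 (3.24) have the largest log2 changes, and vir-1 is the called gene that was lower in UAS-wge.

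The arrays of ey>wge gave low blood-cell signals too. The summed plasmatocyte signal of ey>wge was 7519.4 to 8100.4, within the ey-Gal4 range of 7199.2 to 8466.7. For all 12 blood-cell genes called higher in UAS-wge, the 3 ey>wge arrays lay below the 3 UAS-wge arrays, and for 9 of the 12 the ey>wge mean was below the ey-Gal4 mean. These genes were chosen for their difference between the lines, so this is a description with no test.

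Muscle transcripts ran the other way. Of 29 contractile genes, 20 were tested, 6 were lower in UAS-wge and none was higher (12 lower and 0 higher at an unadjusted p under 0.05), against 2.69% and 2.31% of all probe sets. The list's median change was -0.81, and its groups did not overlap for 11 genes that were lower and 1 that was higher, against 11.1% and 11.5% of all probe sets. The summed signal was 30998.3, 30694.9 and 30120.9 in UAS-wge replicates 1, 2 and 3, and 52941.3, 38499.4 and 41583.4 in those of ey-Gal4. In ey-Gal4, replicate 1 was highest for 17 of the 20 genes.

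Zasp66, which encodes a PDZ domain protein of the Z-disc, read 896.6, 868.5 and 968.2 in UAS-wge, against 4073, 2429 and 3054 in ey-Gal4 (-1.76 ± 0.21, adjusted p = 2.36e-05). TpnC73F, a troponin C gene, read 248.6, 397.0 and 350.5 in UAS-wge, against 1084, 839.4 and 1009 in ey-Gal4 (-1.53 ± 0.21, adjusted p = 0.000113). Both stayed called without any of the 6 parental arrays. The other tested probe set of TpnC73F, which was dimmer, changed by -0.41 and was not called. The troponin T gene up read 254.1, 357.3 and 526.4 in UAS-wge, against 1698, 631.0 and 1012 in ey-Gal4, and fell by 1.46 on the log2 scale (adjusted p = 0.0154). The others were bt (projectin) at -1.30, Tm2 (tropomyosin) at -1.20 and Mlp84B (a muscle LIM protein gene) at -0.99.

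Array ey-Gal4 replicate 1 carried part of this difference. Without it, up changed by -1.10 (adjusted p = 0.111), bt by -0.92 (0.0765), Tm2 by -0.80 (0.171) and Mlp84B by -0.80 (0.202), so that 2 muscle genes were called. Without UAS-wge replicate 1 the count was also 2. The up call was further lost without ey-Gal4 replicate 3 (0.0603) or UAS-wge replicate 2 (0.0607), that of Tm2 without UAS-wge replicate 2 (0.126), and that of Mlp84B without any parental array (0.0628 to 0.202). Dimmer probe sets of Mf (-1.35), Msp300 (-1.38) and Prm (-0.99), which do not stand for their gene in the count of 6, were called lower as well. The Msp300 and Prm calls were near the threshold (adjusted p = 0.0464 and 0.0499). The brightest probe sets of Mf (-0.78), Prm (-1.03) and Msp300 (0.19) were not called, and the remaining Msp300 probe sets ran from -0.87 to 0.90, also not called. None of 10 myoblast genes was called (2 at an unadjusted p under 0.05), with a median change of -0.07.

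**Figure D2:**
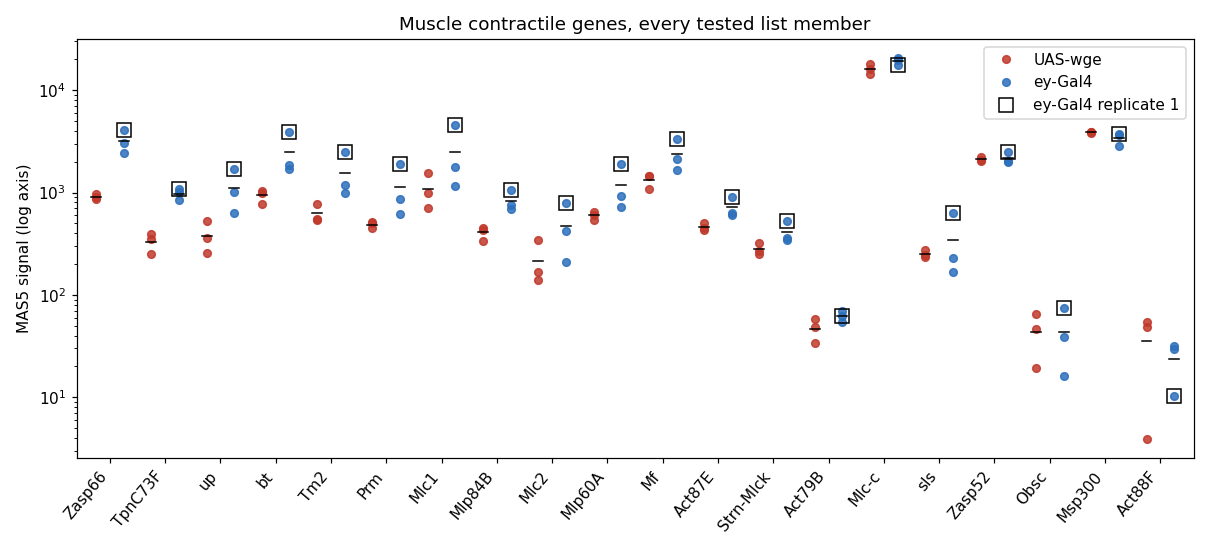
MAS5 signal (log axis) of the contractile genes on each array, with UAS-wge to the left of ey-Gal4, points for arrays, bars for means and squares round ey-Gal4 replicate 1. For up, bt and Tm2 ey-Gal4 replicate 1 is the highest point, at 1698, 3906 and 2509.

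Cuticle genes differed singly and in both directions. Of 137 cuticle genes, 82 were tested, with 5 higher and 5 lower in UAS-wge, 12.2% in all, against 2.31% higher and 2.69% lower (4.99% in all) of all probe sets. The median change of the list was 0.01, the same as that of all probe sets. TwdlG, a member of the Tweedle family of cuticle proteins, had the largest rise of all single-gene probe sets. It read 721.9, 606.9 and 627.2 in UAS-wge, against 14.9, 6.3 and 3.3 in ey-Gal4. Its change was 4.81 ± 0.31 (adjusted p = 1.54e-08), and the size depended on the pseudocount: 6.36 with a pseudocount of 1 and 3.31 with 64.

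The larval cuticle protein gene Lcp9 read 126.2, 210.9 and 139.5 in UAS-wge, against 16.2, 24.2 and 5.2 in ey-Gal4 (2.50 ± 0.61, adjusted p = 0.0192), a call lost without any of 4 of the 6 parental arrays (ey-Gal4 replicates 1 and 3, UAS-wge replicates 2 and 3; adjusted p up to 0.104). Lcp65Ae (1.69) and Lcp65Af (1.27), neighbours on chromosome arm 3L, were higher as well. The call of Lcp65Af was lost without replicate 2 or 3 of either line (adjusted p up to 0.125), and that of Lcp65Ae without ey-Gal4 replicate 2 or 3 (up to 0.0755) and with a pseudocount of 1 (0.0534). Lcp65Ae passed the filter through the 3 UAS-wge arrays alone, so it had to differ, and it is 1 of the 5 higher genes counted above. Cpr51A, a gene for a chitin-binding cuticle protein, was already high in ey-Gal4: it read 4668, 4777 and 5102 in UAS-wge, against 2179, 3007 and 2539 in ey-Gal4 (0.92 ± 0.18, adjusted p = 0.00442).

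Lower in UAS-wge were the cuticle protein genes Cpr78E, Pcp, Cpr97Ea and Cpr12A and the chitin-binding gene obst-B. Cpr78E read 200.3, 141.4 and 115.8 in UAS-wge, against 379.1, 581.4 and 606.0 in ey-Gal4 (-1.68 ± 0.35, adjusted p = 0.00672). Cpr12A read 181.6, 139.8 and 152.6 in UAS-wge, against 332.1, 424.4 and 469.3 in ey-Gal4 (-1.28 ± 0.23, adjusted p = 0.00187). Pcp (-1.48), Cpr97Ea (-1.36) and obst-B (-0.60) were less stable. They lost the call without 5, 3 and 4 of the 6 parental arrays, with adjusted p-values of up to 0.120, 0.101 and 0.122; ey-Gal4 replicate 3 and UAS-wge replicate 3 were among those arrays for each gene.

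**Figure D3:**
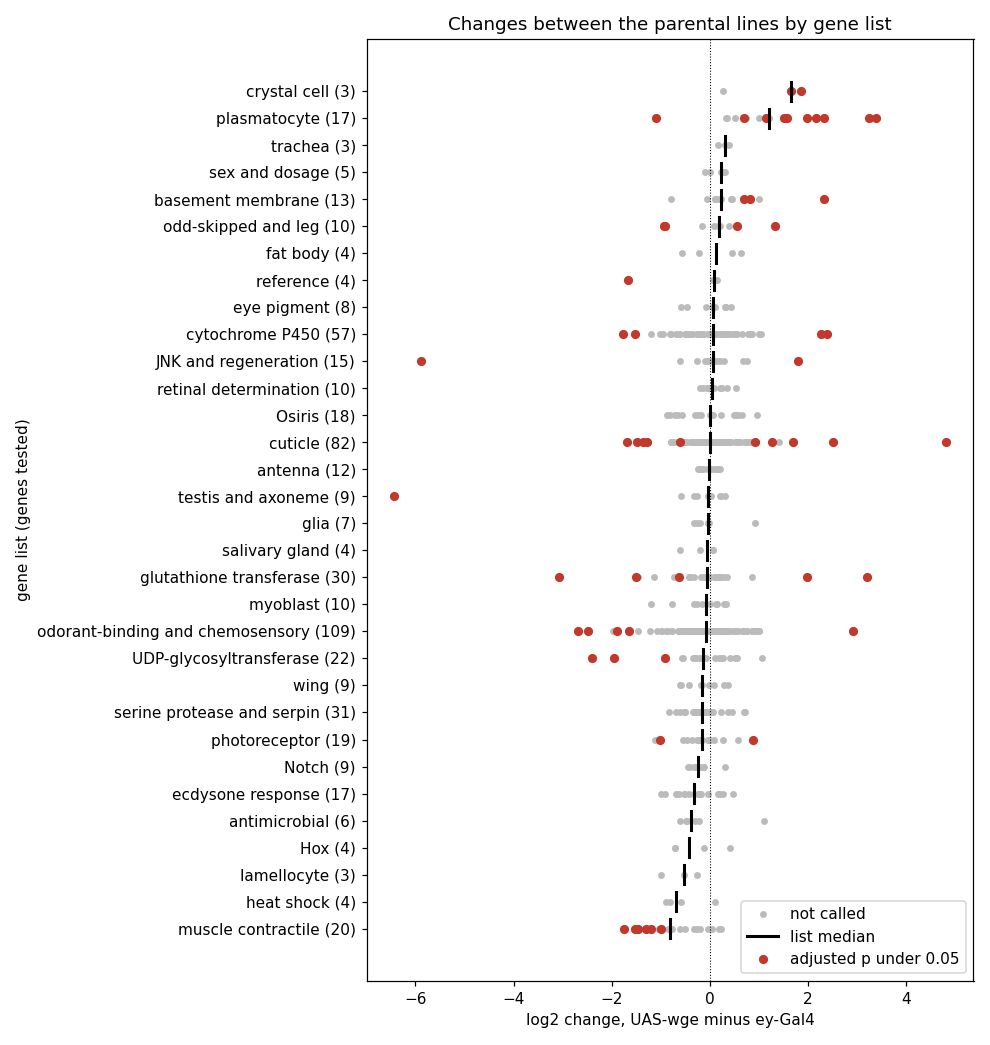
Change in log2(signal + 16), UAS-wge minus ey-Gal4, of every tested gene of each list, with 1 point per gene, a black bar at the list median and a dotted line at 0.01, the median of all tested probe sets. The plasmatocyte list has a median of 1.20 and the muscle list one of -0.81, while the cuticle list spreads to both sides of 0.01.

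Transcripts that were bright in one line and dim in the other were rare. The level rule asked for signals above the 75th percentile on all 3 arrays of a line and below the median on all 3 of the other. TwdlG met it as the single probe set for UAS-wge (0.00533% of 18769), and 2 met it for ey-Gal4 (0.0107%), Tektin-C and a probe set with no gene name. With the 60th percentile as the upper bound, 4 met it for UAS-wge (TwdlG, mthl8, Lcp9 and CG10764) and 10 for ey-Gal4. Of these 10, 7 name a gene: Tektin-C, Rab40, CG12481, CG13032, ea, Dpp10 and CG9121.

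Tektin-C encodes a tektin, a filament protein of the microtubules of cilia and sperm tails. It read 2.2, 4.2 and 22.8 in UAS-wge, against 2017, 2045 and 2175 in ey-Gal4. This was the largest change of all single-gene probe sets, -6.43 ± 0.26 (adjusted p = 3.07e-11), with -8.15 at a pseudocount of 1 and -4.87 at 64. It was the single called gene of 9 tested testis and axoneme genes, which is 11.1%, against 4.99% of all probe sets. In ey>wge it read 1077, 1047 and 994.1, and in ey>wge discs with the Su(var)3-9 allele pair, which also carry driver and transgene, it read 2.6, 2.0 and 6.5.

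The next falls were rgn and CG14957. The gene rgn (regeneration) read 102.1, 76.0 and 74.7 in UAS-wge, against 5227, 5462 and 7019 in ey-Gal4 (-5.88 ± 0.17, adjusted p = 1.78e-13). Since even the low line was above the array median, its size moved little with the pseudocount, from -6.12 with 1 to -5.32 with 64. CG14957 read 55.0, 2.7 and 16.4 in UAS-wge, against 1792, 1244 and 1594 in ey-Gal4 (-5.46 ± 0.35, adjusted p = 1.23e-08). Rab40, a small GTPase gene of the Rab family, read 29.8, 41.9 and 19.8 in UAS-wge, against 724.8, 542.3 and 535.2 in ey-Gal4 (-3.74 ± 0.22, adjusted p = 5.15e-09). The lines did not overlap for any of these, as the choice of the largest falls required. The easter protease gene ea, which acts upstream of Toll in the embryo, read 8.5, 14.2 and 13.4 in UAS-wge, against 267.6, 153.4 and 205.3 in ey-Gal4 (-2.98 ± 0.40, adjusted p = 9.53e-05). Listericin, an immune-induced gene, changed by -3.13 ± 0.74 (adjusted p = 0.0154), a call lost without ey-Gal4 replicate 1 or 2 or UAS-wge replicate 1 or 3 (adjusted p up to 0.0810).

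Among rises, mthl8 was measured by 2 probe sets that moved together. This gene of the Methuselah-like receptor family read 389.9, 324.1 and 529.6 in UAS-wge, against 2.0, 6.8 and 2.5 in ey-Gal4 with the first (4.43 ± 0.26, adjusted p = 4.78e-09). The second probe set read 646.4, 619.4 and 912.0 in UAS-wge, against 1.8, 62.3 and 27.4 in ey-Gal4 (4.22 ± 0.37, adjusted p = 8.2e-07). CG32373 (3.52) and CG14275 (3.30) followed. Obp99a, an odorant-binding protein gene, was bright in both lines, with 8567, 8398 and 8113 in UAS-wge, against 1293, 1071 and 935.6 in ey-Gal4 (2.92 ± 0.17, adjusted p = 2.51e-09). SCAP, which escorts the sterol-regulated factor SREBP, read 1434, 1444 and 1292 in UAS-wge, against 154.1, 328.2 and 248.7 in ey-Gal4 (2.49 ± 0.26, adjusted p = 6.8e-06). The antiviral gene pst (pastrel) was higher by 2.35 ± 0.19 (adjusted p = 2.47e-07).

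A pair of large rises rested in part on UAS-wge replicate 3. GstE14, a glutathione transferase gene needed for ecdysteroid synthesis, read 176.3, 453.6 and 2229 in UAS-wge, against 39.6, 65.1 and 41.3 in ey-Gal4 (3.21 ± 0.76, adjusted p = 0.0158). Without that replicate the change was 2.24 (adjusted p = 0.114), and without ey-Gal4 replicate 1 or 3 the adjusted p was 0.0667 or 0.0700. EbpIII, the gene of an ejaculatory bulb protein, read 148.1, 267.4 and 1135 in UAS-wge, against 93.9, 71.9 and 11.3 in ey-Gal4 (2.55 ± 0.58, adjusted p = 0.0123). Its change was 1.75 without that replicate (adjusted p = 0.0814), and its call was lost without ey-Gal4 replicate 3 as well (0.0933).

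**Figure D4:**
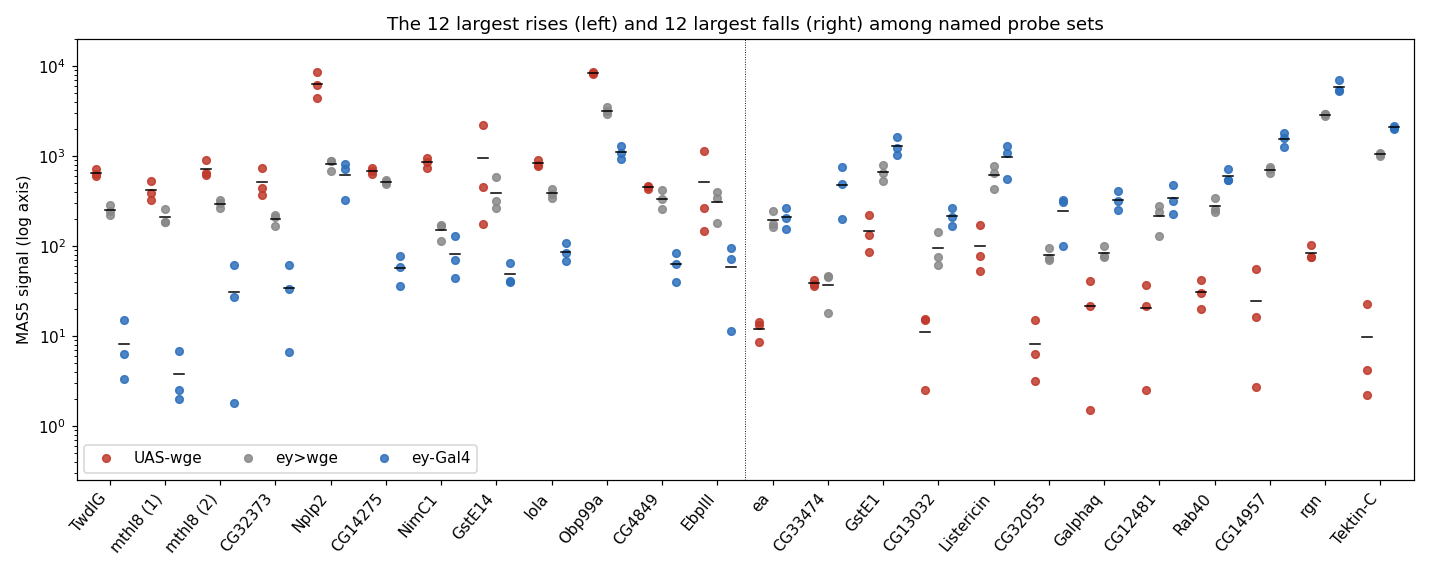
MAS5 signal (log axis) of the 12 largest rises and 12 largest falls among named probe sets, with UAS-wge, ey>wge and ey-Gal4 from left to right within each gene, points for arrays and bars for means. In Tektin-C the UAS-wge arrays lie at 2.2 to 22.8, those of ey>wge at 994.1 to 1077 and those of ey-Gal4 at 2017 to 2175.

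Genes of detoxification enzymes were called singly. Of 57 cytochrome P450 genes tested, 2 were higher (Cyp4g1, an enzyme of cuticular hydrocarbon synthesis, by 2.39, and Cyp9c1 by 2.27) and 2 lower (Cyp4e2 and Cyp6d2), with a list median of 0.06; 7.02% of the list was called, near the 4.99% of all probe sets. The call of Cyp4g1 was lost without UAS-wge replicate 3 (adjusted p = 0.0539), and that of Cyp6d2 without ey-Gal4 replicate 3 or UAS-wge replicate 1 (up to 0.0809). Of 30 glutathione transferase genes, 2 were higher (GstE14 and GstT3) and 3 lower (GstE1, GstD3 and GstD1), 16.7% in all, with a median of -0.06. GstE1 read 86.4, 132.5 and 219.2 in UAS-wge, against 1642, 1033 and 1231 in ey-Gal4 (-3.08 ± 0.25, adjusted p = 3.69e-07). Of 22 UDP-glycosyltransferase genes 3 were lower, 13.6%, against 2.69% of all probe sets, and Ugt302K1 changed the most, with 254.0, 235.5 and 242.0 in UAS-wge, against 1105, 1686 and 1343 in ey-Gal4 (-2.40 ± 0.17, adjusted p = 6.26e-08).

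Of 109 chemosensory genes tested, Obp99a was higher and 4 were lower: the odorant receptor genes Or65a (-2.70) and Or65b (-1.90) and the odorant-binding protein genes Obp56a (-2.48) and Obp69a (-1.64). That is 4.59% of the list, near the 4.99% of all probe sets, so the count is no result about chemosensory genes. Or65a and Or65b are neighbours on arm 3L. Or65a read 5.1, 4.7 and 41.6 in UAS-wge, against 208.1, 196.0 and 127.8 in ey-Gal4, and Or65b was dim in both lines, with means of 2.9 in UAS-wge and 54.9 in ey-Gal4. The calls of Obp56a and Obp69a were lost without 3 and 6 of the 6 parental arrays (adjusted p up to 0.0656 and 0.113), ey-Gal4 replicate 1 and 2 and UAS-wge replicate 1 among them.

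Calls among transcription factors and signalling genes of disc patterning varied by list. The odd-skipped and leg list had 2 genes higher and 2 lower of 10 tested, against 2.31% and 2.69% of all probe sets. Of 10 odd-skipped and leg genes, btd, an Sp-family factor gene, was higher by 1.33 ± 0.22 (adjusted p = 0.000758), and drm and odd, zinc finger genes of the odd-skipped family, were lower. The gene drm read 2041, 1480 and 1476 in UAS-wge, against 2968, 2937 and 3425 in ey-Gal4, and odd read 363.6, 339.2 and 458.9 in UAS-wge, against 807.8, 732.5 and 707.9 in ey-Gal4. Their paralog bowl was higher by 0.56 (adjusted p = 0.0431), a call lost without any parental array in turn (0.0697 to 0.184). Of 15 genes of Jun kinase (JNK) signalling and regeneration, wnd, a kinase gene upstream of JNK, was higher, with 2283, 2239 and 1812 in UAS-wge, against 541.8, 703.5 and 554.5 in ey-Gal4 (1.79 ± 0.20, adjusted p = 1.24e-05), and rgn was lower. Of 19 photoreceptor genes, futsch, a microtubule-associated protein gene of neurons, was higher by 0.89 (adjusted p = 0.0376) and chp (chaoptin, a photoreceptor adhesion protein) changed by -1.02 (adjusted p = 0.00762). The futsch call was lost without any parental array in turn (0.0815 to 0.142), and the chp call without replicate 2 of either line (up to 0.0558). With 1 gene higher and 1 lower in each, 13.3% of the JNK and regeneration list and 10.5% of the photoreceptor list were called. This compares with 4.99% of all probe sets.

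Markers of other tissues were not called by limma: 0 of 4 fat body, 0 of 4 salivary gland, 0 of 7 glia and 0 of 3 tracheal genes, and of these 2 glia genes had an unadjusted p under 0.05. No gene was called among 6 antimicrobial peptide, 4 heat shock, 17 ecdysone response, 18 Osiris and 31 serine protease and serpin genes, with 1, 0, 2, 1 and 1 at an unadjusted p under 0.05. Nor was any called among 9 wing, 4 Hox, 8 eye pigment and 5 sex and dosage genes, with 2, 1, 1 and 0 at that threshold. Of Notch pathway genes, 0 of 9 were called (3 at an unadjusted p under 0.05) with a median change of -0.24, and 6 of the 9 had lines that did not overlap with UAS-wge lower, against 11.1% of all probe sets. Of 4 common reference genes, the alpha-tubulin gene alphaTub84D was lower, with 104.6, 139.0 and 68.8 in UAS-wge, against 484.2, 284.1 and 320.0 in ey-Gal4 (-1.66 ± 0.30, adjusted p = 0.0019).

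Genes measured by several probe sets were often called on part of them. Among 572 called genes, 89 had several tested probe sets, 7 were called on all of them and 82 on part. These counts rest on the threshold, and a probe set that was not called may still have moved alike. In Myo10A the called probe set changed by -1.15 and the other by -1.08, while in CG4849 the changes were 2.60 and -0.12. In 3 genes (lola, mod(mdg4) and CG12054) called probe sets ran in opposite directions. For lola, a zinc finger factor gene with many alternative last exons, 2 of 15 probe sets were called: one read 903.9, 803.8 and 781.8 in UAS-wge, against 107.0, 83.8 and 68.9 in ey-Gal4 (3.06 ± 0.33, adjusted p = 8.53e-06), and another changed by -0.87. The chromatin factor gene mod(mdg4), which makes its isoforms by trans-splicing, had 3 of 22 probe sets called, at 2.11, 0.70 and -0.69. For hts, the adducin gene, 1 of 5 was called, with 1797, 2313 and 1571 in UAS-wge, against 8133, 8550 and 8431 in ey-Gal4 (-2.15 ± 0.15, adjusted p = 5.2e-08), while another bright hts probe set changed by -0.31. Of 7 probe sets of fru, a factor of sex-specific behaviour, 1 was called (1.68, adjusted p = 0.032), and of 5 for fau, 3 were lower.

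**Figure D5:**
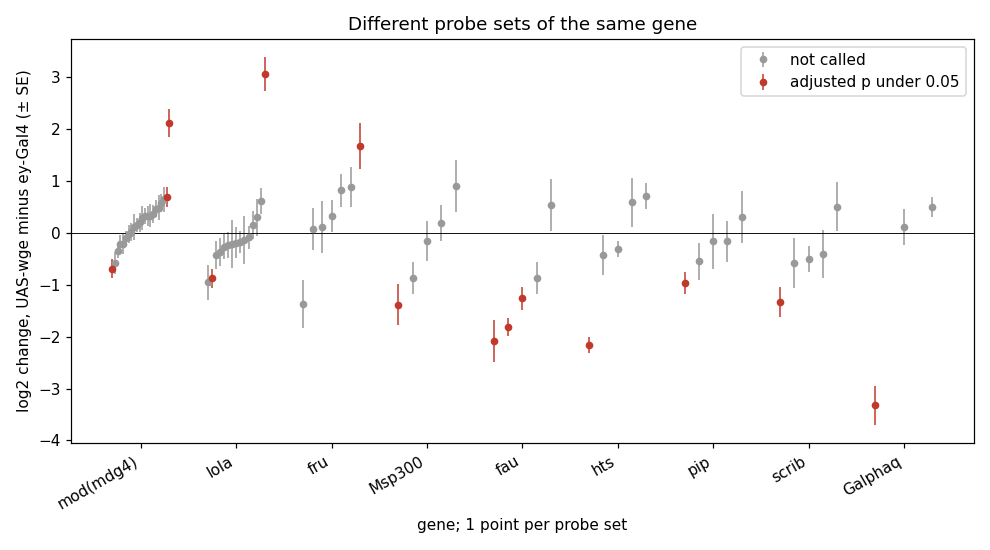
Change in log2(signal + 16), UAS-wge minus ey-Gal4, of every tested probe set of genes with at least 5 of them that had a called member, and of Galphaq, with red points for called probe sets and grey points for the rest. The lola probe set at 3.06, the mod(mdg4) probe set at 2.11 and the hts probe set at -2.15 lie apart from the rest of their gene, while the called ones of lola at -0.87 and of mod(mdg4) at 0.70 and -0.69 lie beside ones that were not called.

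Called genes lay on all large chromosome arms. On the arms 2L, 2R, 3L and 3R, 2.44% to 2.66% of single-gene probe sets were higher and 2.48% to 3.80% lower. Of all 10812 single-gene probe sets tested, 268 were higher and 320 lower. The shares of all probe sets, 2.31% and 2.69%, also cover those that name no gene or several. On X, 41 of 1782 single-gene probe sets were higher (2.30%) and 30 were lower (1.68%); on chromosome 4, 1 of 77 was higher (1.30%) and 6 were lower (7.79%). Among 9687 measured genes in chromosome order, 541 were called, and 65 of them lay beside a called neighbour of the same direction, in 28 pairs and 3 runs of 3. The runs of 3, named because of their length, were Sgt, cass and fws, and CG31643, Pfas and IPIP, both higher on arm 2L, and Clc, CG6951 and rdgC, lower on arm 3L. The gene order came from a newer assembly than can be tied to the array, so no coordinates are given.

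Discs of ey>wge carry driver and transgene, and their level was set beside the line differences. Leaving out the 12 blood-cell and 6 muscle genes, 70 single-gene probe sets differed at least 4-fold. The ey>wge mean lay at a median of 50.4% of the way from the ey-Gal4 mean to the UAS-wge mean on the linear scale (range -39.3% to 100.4%), and all 3 ey>wge arrays lay between the lines for 41 of the 70, which were 23 of the 30 that were higher and 18 of the 40 that were lower in UAS-wge. For the 12 blood-cell genes the median position was -11.3% and none lay between the lines. For the 6 muscle genes it was 47.6%, and 2 of the 6 had all 3 ey>wge arrays between the lines. The summed signal of the whole muscle list in ey>wge was 41153.6 to 42825, within the ey-Gal4 range of 38499.4 to 52941.3. The positions use the arrays that chose the genes, so they have no test.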

How the data were processed

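RNA from eye-antennal discs was measured on Affymetrix arrays. Per the labels' protocols, 100 ng of Trizol-extracted total RNA was amplified through 2 rounds of cDNA synthesis and biotin-labelled. The deposited table holds a linear MAS5 intensity for each probe set on each array, MAS5 being the tool that the submitters' processing notes name; its version and settings, detection calls, batches and dates are not given in the sources used here.

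Signals were used as log2(signal + 16) without further normalization, since trimmed means of the arrays already lay close together. The 183 control probe sets were left out of 18952. Probe sets above the array's 40th percentile on at least 3 of 12 arrays were tested (13817). A mean for each genotype was estimated over all 12 arrays together with limma 3.58.1 in R 4.3.3 (lmFit, eBayes with trend), two-sided, with Benjamini-Hochberg adjustment over all probe sets tested. The number of arrays limits the precision. The fit was tested on simulated data.

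Symbols were taken from the platform's annotation table, and 10755 of 10812 single-gene probe sets tested were matched to a supplied gene table (Release 6 plus ISO1 MT). A probe set without a single symbol was counted but not named. The probe set with the highest mean stands for a gene in a list.

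The members and the 32 gene lists were chosen with earlier results of these data known. The named genes are wge and ey, the 20 largest rises and 20 largest falls among called single-gene probe sets without overlap between lines, up to 6 members of each list by adjusted p, all called blood-cell, muscle and cuticle genes, and transcripts at a line-specific level. Genes of neighbouring runs and of several probe sets were named after their values were seen. The replicate numbers did not pair the arrays: correlations of deviations between same-numbered arrays were -0.03, -0.00 and 0.03. Alternatives were quantile normalization, median centring, pseudocounts of 1 and 64, other filters, no variance trend, array weights, a replicate block, fewer genotypes in the fit, stricter thresholds, the mean of a gene's probe sets, and leaving out each array.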

Additional observations from a re-analysis of the deposited data

How the results depend on the processing

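The 690 called probe sets became 398 at an adjusted p under 0.01 (181 higher, 217 lower) and 393 with a change of at least 1 on the log2 scale as well (170 higher, 223 lower). More were called when all allele-pair arrays were left out or the arrays had unequal weights. The count was 1060 with the 9 arrays without the allele pair (517 higher), with 481 higher on the 6 parental arrays alone and 491 higher with array weights. The lower cuticle genes then numbered 9, 8 and 9. Without a variance trend, 2 muscle genes were lower and 2 cuticle genes higher. With the 60th percentile as upper bound, 4 transcripts were at a line-specific level in UAS-wge and 10 in ey-Gal4. Fewer were called without 1 parental array (456 to 523) or without 1 ey>wge array (628 to 635). Leaving out each array of the series in turn gave 456 to 966 called probe sets, 202 to 468 higher and 252 to 498 lower. The lists then had 8 to 11 plasmatocyte genes higher and 1 to 1 lower, 2 to 8 muscle genes lower, and 2 to 6 cuticle genes higher and 2 to 8 lower, with 1 to 2 transcripts at a line-specific level in UAS-wge and 2 to 3 in ey-Gal4. The cause of these moves was not tested. With the replicate number as a block, 676 were called (314 higher, 362 lower), with 10 plasmatocyte genes higher, 6 muscle genes lower and 5 cuticle genes in each direction, but the numbers did not pair the arrays. None of the 690 changed direction in an alternative fit that tested it, though the 60th percentile filter left 641 of them. Of 85 called named probe sets, 78 were tested in every alternative fit and 54 of these were called in each; the other 7 were missing from at least 1 fit. The arrays hold 3 samples a line, and dim signals limit the sizes of the largest changes.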

Other observations

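Arr1, an arrestin gene, read 30.3, 4.0 and 19.0 in UAS-wge, against 199.9, 97.1 and 237.9 in ey-Gal4 (-2.53 ± 0.42, adjusted p = 0.000812). For Galphaq, a G protein alpha subunit gene, a single probe set of 3 was called, with 1.5, 21.6 and 40.8 in UAS-wge, against 319.2, 249.0 and 406.2 in ey-Gal4 (-3.32 ± 0.37, adjusted p = 1.3e-05). The other Galphaq probe sets, which were brighter, changed by 0.12 and 0.50 and were not called.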
